A study of Homo sapiens with 12 samples.

Results

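The genes described here are IL13RA2, a receptor chain for the cytokine IL-13, and 9 related cytokine receptor genes, IL13RA1, IL4R, IL1R1, IL1RAP, IL6ST, IL6R, IL11RA, LIFR and OSMR. IL13RA2 was chosen from this same comparison for its lower level after RUNX2 silencing, so its values are given as a description without a test. The other 9 genes were selected on kinship with it, as chains of the IL-13, IL-1 and IL-6 families, with results of these data already known. The 10 genes are 10 of the 59248 rows of the deposited tables, matched by Ensembl identifier, and all 10 were among the 16489 genes that passed the filter on low counts. The data come from SJSA-1, an established human osteosarcoma cell line. The sh1 group (6 libraries) carried a lentiviral short hairpin RNA against the transcription factor RUNX2, and the shNC group (6 libraries) carried a scramble hairpin in the same vector. Both groups were selected with puromycin until the cells were positive for the EGFP of the vector, so both are infected populations rather than single clones, and 1 hairpin stands against 1 control. The sources do not say whether the libraries of a group came from separate cultures. The p-values therefore reflect how far these libraries vary, and that variation may be technical only.

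Cytokine receptors of the IL-13 and IL-6 families are assembled from chains that bind the ligand and chains that carry the signal through JAK kinases to STAT transcription factors. IL-13 and IL-4 signal through a pair of IL4R and IL13RA1, while IL13RA2 binds IL-13 tightly and is best known as a decoy that takes up the ligand, although signalling through it has been described in some tumours. IL-1 signals through IL1R1 with its accessory chain IL1RAP and the adaptor MyD88, and the IL-6 family shares the signalling chain gp130, the product of IL6ST, which pairs with LIFR or OSMR or is recruited by IL6R and IL11RA. In bone, members of the IL-6 family act on osteoblasts and on the osteoclasts that resorb bone.

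The total gene count per library was between 11239638 and 16346022 in sh1 and between 15328312 and 19992974 in shNC. Library sh1 replicate 3 stood apart from the others, with the lowest total (11239638), the fewest genes with a count (27392, against 28612 to 28873 in the other sh1 libraries) and the largest share of its counts in rows that lack an Ensembl identifier (1.23%, against 0.468% to 0.531% in the other sh1 libraries). RUNX2 had 21.6, 24.8 and 27.4 CPM (counts scaled to a common library size by the TMM method) as lowest, median and highest value in sh1, against 35.5, 37.7 and 46.2 CPM in shNC. The groups did not overlap. RUNX2 fell by 0.69 on the log2 scale (SE 0.076, edgeR p adjusted by Benjamini-Hochberg over all tested genes = 4.6e-06). It was among the 13.3% of all tested genes that passed as lower. The 21.6 CPM was sh1 replicate 3, without which the lowest sh1 value was 23.6 CPM and the log2 fold change -0.65. Mesenchymal and bone markers summed to 3724 to 4338 CPM in sh1 and 2911 to 3072 CPM in shNC, and the osteoblast enzyme gene ALPL was near 0 (0.010 CPM in sh1 and 0.027 CPM in shNC). Of the 8, 7 were tested and 4 rose without overlap between the groups, where 5.84% of all tested genes were higher in sh1 without overlap. Their log2 fold changes were 1.49 for COL1A1, 1.11 for COL6A1, 0.93 for CDH11 and 0.66 for SPARC. VIM (1270 CPM in sh1 and 1383 CPM in shNC), COL1A2 (log2 fold change 0.22) and TWIST1 (-0.17) did not pass. Epithelial markers summed to at most 0.319 CPM in sh1 and 0.252 CPM in shNC. The 6 leukocyte markers summed to 1.47 to 3.18 CPM in sh1 and 0.692 to 2.07 CPM in shNC, with the pan-leukocyte gene PTPRC at 0.043 CPM in sh1 and 0.019 CPM in shNC. Of these 6, only ITGAM had enough reads to be tested, and it rose (1.90 CPM in sh1 and 0.946 CPM in shNC, log2 fold change 1.02, edgeR adjusted p = 0.013). The part of these marker differences in the receptor values was not tested.

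Across the receptor genes, IL13RA2 was the one with lower values in sh1, at 22.0% of its mean CPM in shNC, and the other 9 all had positive fold changes, with a median log2 fold change of 0.28 and a range of 0.13 to 0.71. The median over all tested genes was -0.0035, and 49.3% of them were positive. Of the 9 genes, 6 rose in sh1 by edgeR's quasi-likelihood test (IL4R, IL1R1, IL1RAP, IL11RA, LIFR and OSMR), where 12.8% of all tested genes passed as higher. None of the 9 passed edgeR's test as lower, where 13.3% of all tested genes did, and the count of lower genes was also 0 at an unadjusted p under 0.05 and in all 24 alternative settings, DESeq2 and limma included. The groups did not overlap for IL1R1 and IL11RA, 2 of the 9 genes, where 5.84% of all tested genes were higher in sh1 without overlap. IL13RA1, IL6ST and IL6R did not pass. Without sh1 replicate 3, 7 of the 9 genes passed, with IL13RA1 added. Leaving out each of the 12 libraries in turn gave 5 to 8 of the 9 genes. These are values of whole cell populations, in which fewer expressing cells and less RNA per cell cannot be told apart.

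**Figure D1:**
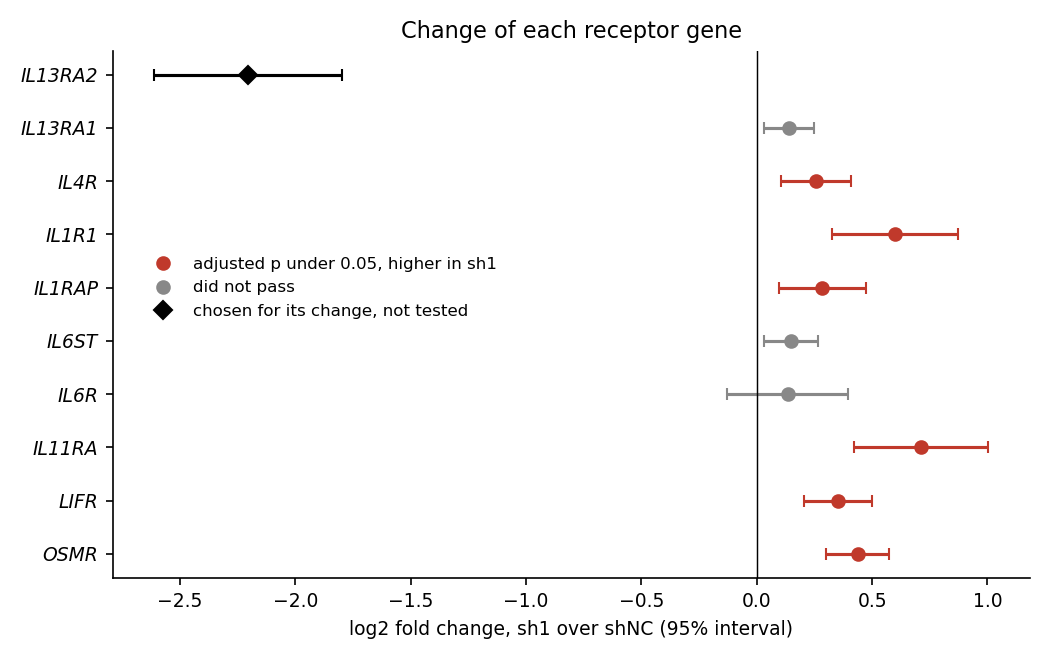
Log2 fold change of sh1 over shNC for each of the 10 receptor genes. The 95% intervals use the SE of the edgeR fit over all genes and a normal quantile, before adjustment for multiple tests. The diamond is IL13RA2 at -2.20. It was chosen for its decrease, so its interval is no test. Red points are the 6 genes that passed at an adjusted p under 0.05, and grey points are IL13RA1, IL6ST and IL6R.

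IL13RA2 (ENSG00000123496, X:115003975-115019977, minus strand, GRCh38) overlaps no other annotated gene. It had 0.523 CPM as the lowest value, 1.20 as the median and 1.68 as the highest in sh1, against 3.86, 4.95 and 6.32 CPM in shNC. Every sh1 library lay below every shNC library, and the share of all tested genes lower without overlap is not given here. These levels rest on few reads, 8 to 21 counts per library in sh1 (98 in all) and 66 to 120 in shNC (532 in all). The lowest count, 8, belonged to sh1 replicate 1, and the highest CPM of the group to sh1 replicate 3, which had 19 counts in the smallest library. The next highest sh1 value was 1.29 CPM. The mean was 1.12 ± 0.402 CPM in sh1 and 5.09 ± 1.02 CPM in shNC (SD, n = 6 each), and relative spread was wider in sh1 (36.0% of the mean) than in shNC (20.1%). Counting noise is larger relative to the mean at the fewer sh1 counts, and its part in this spread was not tested. Of all tested genes, 146 passed as lower with at least a 2-fold change. The fitted log2 fold change of IL13RA2 was -2.20, with an SE of 0.207 that is no test, as the gene was chosen for its decrease. Leaving out each library in turn gave -2.32 (without sh1 replicate 3) to -2.05 (without sh1 replicate 1).

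**Figure D2:**
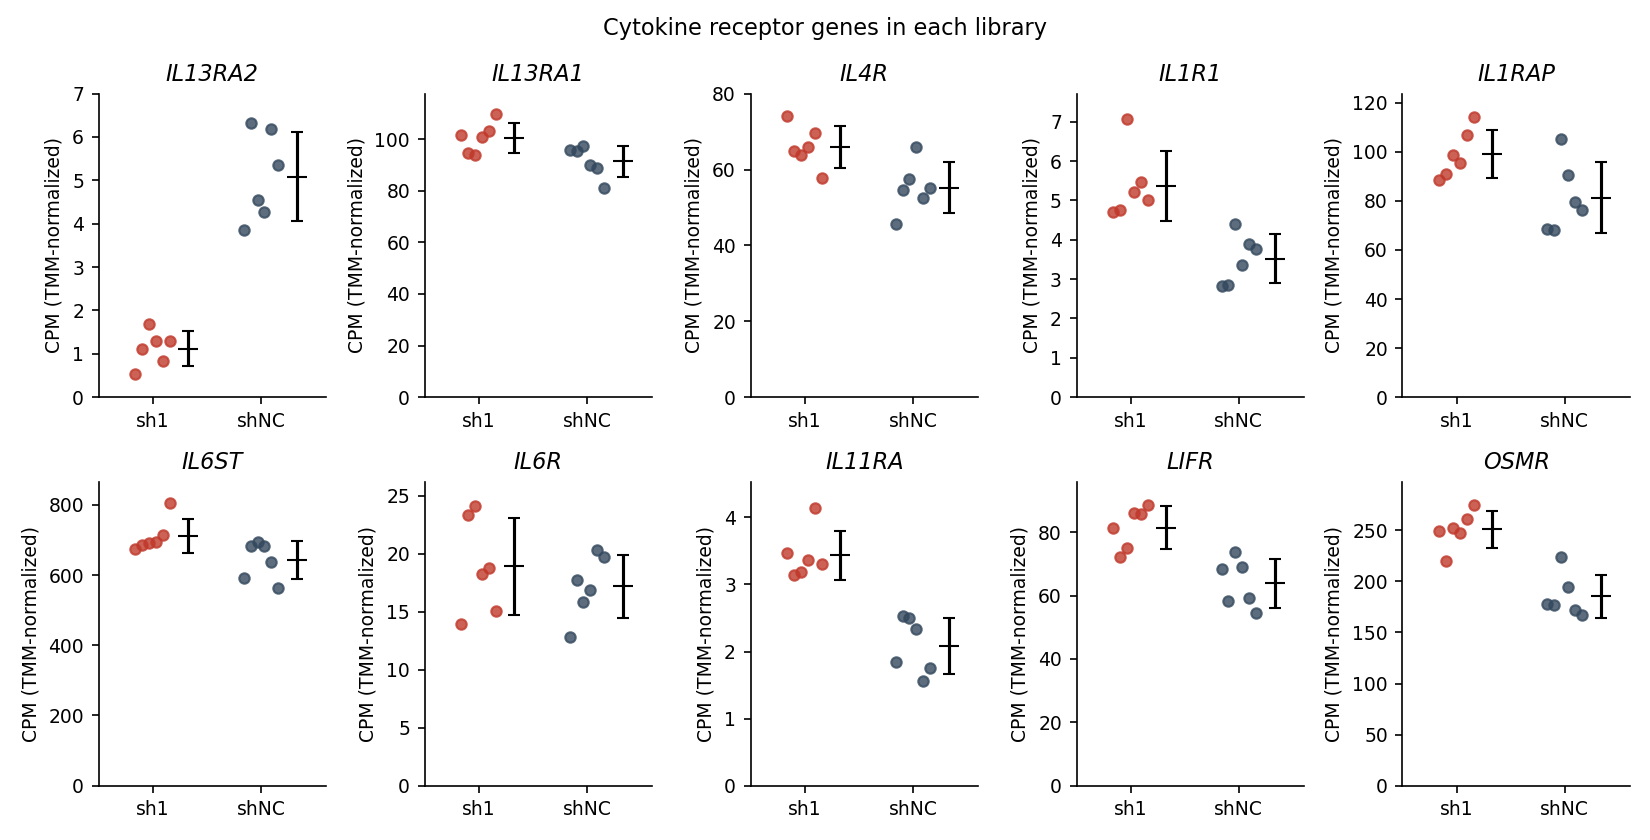
CPM of the 10 receptor genes in each of the 12 libraries, sh1 in red and shNC in dark blue, with the mean and SD of each group beside the points and an axis from 0 in each panel. The groups are apart for IL13RA2 (0.523 to 1.68 in sh1, 3.86 to 6.32 in shNC), IL1R1 and IL11RA, and they overlap for the other 7 genes.

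The 6 nearest tested genes around IL13RA2 on the X chromosome had adjusted p from 0.176 to 0.818 in the edgeR fit. The nearest of them, LRCH2 (90.6 kb away), had a log2 fold change of 0.07, PLS3 (541.2 kb) of 0.10 and AMOT (2163.1 kb) of 0.03. The others were PLS3-AS1 (498.2 kb, -0.40), ALG13 (3243.3 kb, 0.12) and EIF4BP7 (3382.5 kb, -0.03). Genes farther than PLS3 on its side were not examined, even if nearer than ALG13. IL13RA1 lies 3707.2 kb from IL13RA2 on the same chromosome. The genes whose log2 CPM followed IL13RA2 most closely over the 12 libraries, among 13116 genes with a symbol and enough reads, were SRGN (Pearson r = 0.986), EMP1 (0.981), GPAT3 (0.981), SUPV3L1 (0.976) and CHUK (0.974). SRGN encodes the proteoglycan serglycin, EMP1 a membrane protein, GPAT3 an enzyme of triglyceride synthesis, SUPV3L1 a mitochondrial RNA helicase and CHUK a kinase of the NF-κB pathway. Each of the 5 was lower in sh1, by log2 fold changes of -0.48, -0.56, -0.93, -0.43 and -0.37 in that order. That direction follows from the choice, because IL13RA2 itself was lower in every sh1 library, and it is no separate result. The 12 points share the difference between the groups, and r for SRGN within a group was 0.959 in sh1 and 0.598 in shNC. These 12 libraries also served to choose the 5 genes, so r within a group is favoured by the choice and is no separate result. Over the 5 genes, r within a group was 0.839 (GPAT3) to 0.959 (SRGN) in sh1 and 0.577 (CHUK) to 0.824 (EMP1) in shNC.

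Of the receptor pair for IL-13 and IL-4, IL4R rose and IL13RA1 did not pass. IL4R (ENSG00000077238, 16:27313668-27364778), which binds IL-4 and carries the signal of both cytokines, had 57.7, 65.4 and 74.1 CPM as lowest, median and highest in sh1, against 45.6, 54.9 and 66.0 CPM in shNC. The ranges overlapped, with 2 sh1 libraries above the highest shNC library and all 6 above the shNC median. The log2 fold change was 0.26 (SE 0.077, edgeR adjusted p = 0.0191). IL13RA1 (ENSG00000131724, X:118727133-118794535), the other chain of the pair, had 93.9, 101.3 and 109.6 CPM in sh1 against 80.9, 92.7 and 97.3 CPM in shNC, with a log2 fold change of 0.14 (95% interval 0.03 to 0.25, edgeR adjusted p = 0.069). Its adjusted p was under 0.05 in 6 of 24 alternative settings, among them without sh1 replicate 3 (0.0354), without sh1 replicate 2 (0.0420) and without shNC replicate 3 (0.0397).

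Per length, in the deposited FPKM (fragments per kilobase of gene, scaled by depth), the share of IL13RA2 in the sum of IL13RA1 and IL13RA2 was 1.37%, 3.06% and 4.59% as lowest, median and highest in sh1, against 9.77%, 13.2% and 15.8% in shNC. The 4.59% was sh1 replicate 3, and the next highest sh1 share was 3.31%. The shares of the groups were apart, as the IL13RA2 values alone already are. The ratio of IL4R to IL13RA1 was 0.391 to 0.542 in sh1 and 0.353 to 0.543 in shNC, and these overlapped. Reads of the ligand genes were few. IL13 had 0 counts over the 6 sh1 libraries, which allows a level of up to 0.0336 CPM (3 counts of 89400482), and 3 counts over the shNC libraries, and IL4 had 10 counts in sh1 and 13 in shNC. Among the kinase and transcription factor genes that serve the pair, JAK1 (206.5 CPM in sh1 and 189.3 CPM in shNC, log2 fold change 0.13, adjusted p = 0.034) and STAT6 (138.6 CPM in sh1 and 125.2 CPM in shNC, 0.15, adjusted p = 0.024) rose. The kinase genes TYK2 (58.8 CPM in sh1 and 57.3 CPM in shNC, 0.04, adjusted p = 0.72) and JAK2 (24.5 CPM in sh1 and 26.6 CPM in shNC, -0.13, adjusted p = 0.20) did not pass. Of 13 genes known to respond to STAT6, 1 had enough reads to be tested, the transglutaminase TGM2, which fell by 0.37 on the log2 scale (816 CPM in sh1 and 1058 CPM in shNC, adjusted p = 0.0026). Of 6 genes for partners of IL13RA2 and for proteases that shed receptors, 1 rose (16.7%, a share close to the 12.8% of all tested genes). It was the sheddase ADAM17 (156 CPM in sh1 and 132 CPM in shNC, log2 fold change 0.24, edgeR adjusted p = 0.0070). CHI3L1, a ligand of IL13RA2, had 2.84 CPM in sh1 and 1.53 CPM in shNC and did not pass (0.90, adjusted p = 0.098). The median of these 6 was 0.15.

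**Figure D3:**
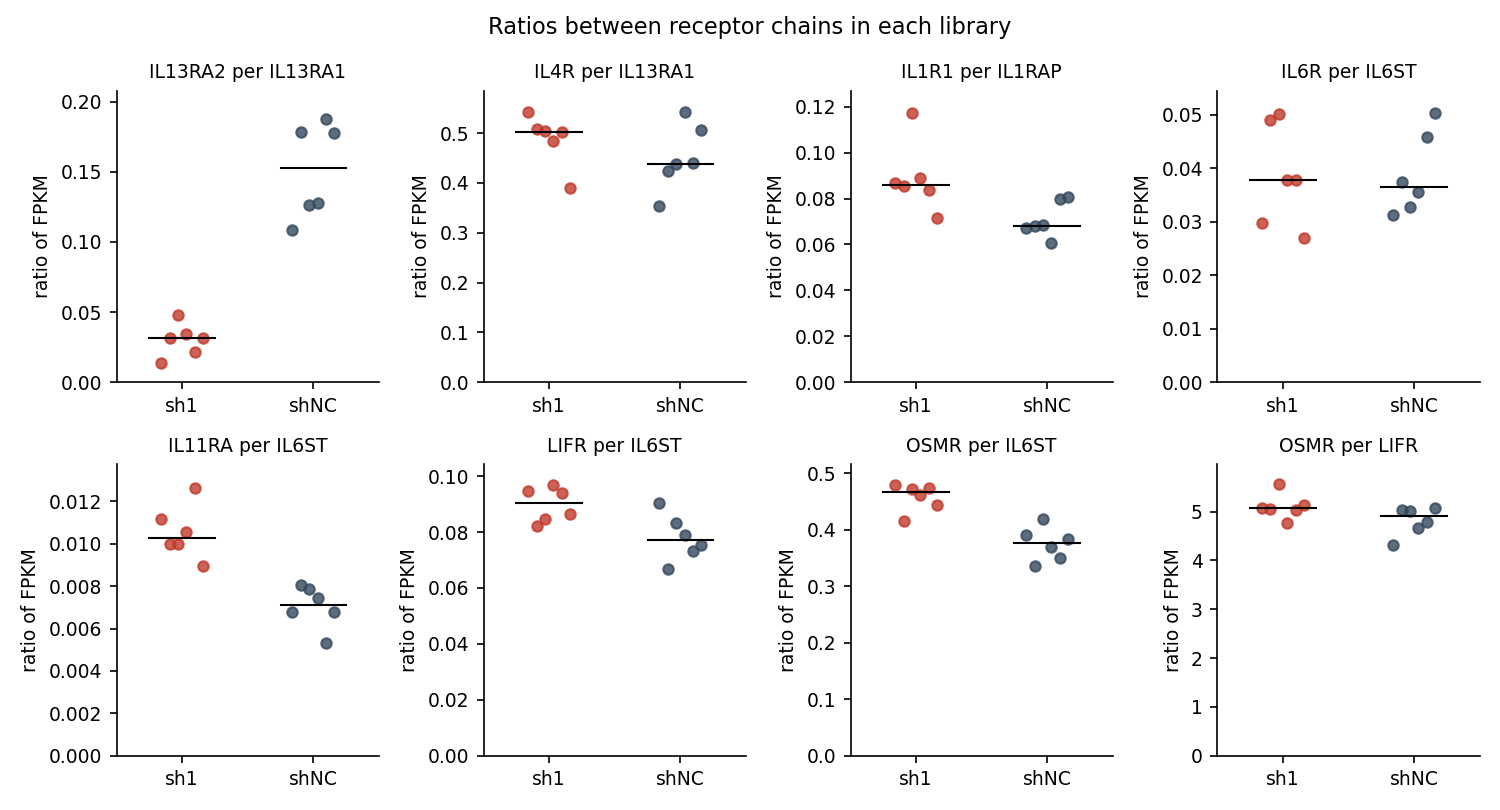
Ratios of FPKM between receptor chains in each library, sh1 in red and shNC in dark blue, with a line at the median of each group and axes from 0. The groups are apart for IL13RA2 per IL13RA1 (0.0139 to 0.0481 in sh1, with the highest point sh1 replicate 3, and 0.108 to 0.187 in shNC) and for IL11RA per IL6ST (0.00896 to 0.0126 in sh1, 0.00534 to 0.00806 in shNC). The values of IL13RA2 and of IL11RA alone are already apart.

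Both chains of the IL-1 receptor rose. IL1R1 (ENSG00000115594, 2:102064544-102179874), the chain that binds IL-1, had 4.71, 5.10 and 7.07 CPM in sh1 as lowest, median and highest, against 2.82, 3.57 and 4.41 CPM in shNC. All 6 sh1 libraries were above every shNC library, and sh1 replicate 3 was the highest by a wide margin, with the other sh1 libraries between 4.71 and 5.48 CPM. The log2 fold change was 0.60 (SE 0.139, edgeR adjusted p = 0.0041), and without sh1 replicate 3 it was 0.52 (adjusted p = 0.0081). IL1RAP (ENSG00000196083, 3:190514051-190659750), the accessory chain, had 88.5, 97.1 and 114.4 CPM in sh1 against 68.1, 77.9 and 105.2 CPM in shNC. Its ranges overlapped through shNC replicates 3 and 4 (105.2 and 90.5 CPM). The log2 fold change was 0.28 (SE 0.095, adjusted p = 0.0352), and the call was lost when any of sh1 replicates 5 and 6 or shNC replicates 1, 2, 5 and 6 was left out (adjusted p from 0.0590 to 0.0762). The ratio of IL1R1 to IL1RAP in FPKM was 0.0714 to 0.117 in sh1 and 0.0607 to 0.0808 in shNC. The 0.117 was sh1 replicate 3, and the next highest sh1 ratio was 0.0889.

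Both IL-1 ligand genes fell. IL1B, which encodes secreted IL-1 beta, averaged 82.3 ± 14.9 CPM in sh1 and 293 ± 50.9 CPM in shNC (SD, n = 6 each) and fell by 1.84 on the log2 scale (edgeR adjusted p = 1.2e-08), and IL1A averaged 38.4 CPM in sh1 and 49.2 CPM in shNC and fell by 0.36 (adjusted p = 0.022). IL1RN, the gene of the natural IL-1 receptor blocker, had 6 counts in sh1 and 1 in shNC. Of 14 genes for IL-1 adaptors and kinases, 12 were tested, 3 rose and 1 fell (12.8% and 13.3% of all tested genes did so), with a median log2 fold change of -0.04. Among these, the kinase gene IRAK2 rose (96.5 CPM in sh1 and 64.4 CPM in shNC, log2 fold change 0.58, adjusted p = 7.3e-04), as did TAB2 (0.35, adjusted p = 4.6e-04) and PELI1 (0.35, adjusted p = 0.014), while IRAK4 fell by 0.22 (adjusted p = 0.018). The adaptor gene MYD88 had 32 counts over the sh1 libraries and 21 over the shNC libraries and was not tested.

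In FPKM, the IL-6 family held the most abundant of the receptor genes, IL6ST and OSMR. IL6ST (ENSG00000134352, 5:55935095-55995022, minus strand), the gene of gp130, had 673.4, 693.6 and 804.0 CPM in sh1 against 563.8, 659.0 and 694.3 CPM in shNC. The highest value, 804.0, was sh1 replicate 6, and 3 of the 6 sh1 libraries were above the highest shNC library. Its log2 fold change was 0.15 (95% interval 0.03 to 0.27, edgeR adjusted p = 0.080), and it passed only without shNC replicate 3 or shNC replicate 4 (adjusted p = 0.043 in both). IL6R (ENSG00000160712, 1:154405193-154469450), the ligand-binding chain for IL-6, had 13.9, 18.5 and 24.1 CPM in sh1 and 12.8, 17.3 and 20.3 CPM in shNC, with a log2 fold change of 0.13 (95% interval -0.13 to 0.39, adjusted p = 0.494) that passed in no setting. The value moved with single libraries, to 0.06 without shNC replicate 1, 0.07 without sh1 replicate 3, which held the 24.1 CPM, and 0.22 without sh1 replicate 1. The ranges of IL6R overlapped, with 2 sh1 libraries above the highest shNC library.

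OSMR (ENSG00000145623, 5:38845858-38945596), the chain for oncostatin M, rose with the smallest adjusted p of the 9 genes. It had 220.4, 250.8 and 274.9 CPM in sh1 against 166.7, 177.4 and 224.2 CPM in shNC, so that 5 of 6 sh1 libraries lay above every shNC library and the overlap came from shNC replicate 3. The log2 fold change was 0.44 (SE 0.069, edgeR adjusted p = 0.00017). LIFR (ENSG00000113594, 5:38474668-38608354, minus strand), the receptor chain for leukaemia inhibitory factor, had 72.1, 83.6 and 88.7 CPM in sh1 against 54.3, 63.8 and 73.9 CPM in shNC, with 5 of 6 sh1 libraries above every shNC library. Its log2 fold change was 0.35 (SE 0.076, adjusted p = 0.0022). IL11RA (ENSG00000137070, 9:34652162-34661902), the chain for IL-11, had 3.15, 3.34 and 4.14 CPM in sh1 against 1.56, 2.09 and 2.53 CPM in shNC, and the groups did not overlap. It rose by a log2 fold change of 0.71 (SE 0.148, adjusted p = 0.00175), on 36 to 65 counts per library in sh1 and 26 to 50 in shNC. OSMR, LIFR and IL11RA passed in all 24 alternative settings.

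The genes of LIFR and OSMR lie 237.5 kb apart on chromosome 5. Other annotated genes overlap some of these, and the library kit does not mark strand. OSMR overlaps RICTOR on the opposite strand, which had 92.7 CPM in sh1 and 94.3 CPM in shNC and a log2 fold change of -0.03, and LIFR overlaps LIFR-AS1 with 1.07 CPM in sh1 and 0.649 CPM in shNC (log2 fold change 0.71, adjusted p = 0.064). IL6ST overlaps ENSG00000264281 on the opposite strand, which had 1.28 CPM in sh1 and 1.88 CPM in shNC. Most of IL11RA lies within ENSG00000258728 (9:34646631-34661886), a protein-coding gene on the same strand that had 0 counts in sh1 and 0 in shNC. The sources do not say how reads in such an overlap were counted. Its part in the low IL11RA level was not tested. The ratio of OSMR to LIFR in FPKM was 4.76 to 5.57 in sh1 and 4.31 to 5.07 in shNC, and the highest sh1 ratio without sh1 replicate 3 was 5.13. The ratio of IL11RA to IL6ST was 0.00896 to 0.0126 in sh1 and 0.00534 to 0.00806 in shNC, without overlap, as the IL11RA values alone already are. The ratios of OSMR and of LIFR to IL6ST had higher medians in sh1 (for OSMR 0.467 in sh1 and 0.376 in shNC, for LIFR 0.0903 in sh1 and 0.0773 in shNC) with overlapping ranges. The ratio of IL6R to IL6ST had a median of 0.0378 in sh1 and 0.0365 in shNC.

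Because LIFR and OSMR are neighbours that rose together, the promoter windows of the receptor genes (250 bases before and 50 after each RefSeq start, GRCh38.p14) were searched on both strands for TGTGGT and TGCGGT, which are RUNX motifs, for TGANTCA, the AP-1 motif, and for TTCNNNGAA, the STAT motif. Of the 10 genes, 9 had an entry, with 15 windows. TGTGGT was found in 2 of the 15 windows (13.1% of all 35116 windows), TGCGGT in 1 (7.29%), TGANTCA in 2 (7.71%) and TTCNNNGAA in 3 (7.66%). LIFR had windows for several starts. That at 5:38557418-38557717 held a STAT motif that begins 182 bases before the start, and that at 5:38556597-38556896 held no match. Another LIFR window (5:38595356-38595655, minus strand) held a STAT motif that begins 165 bases before the start. It is followed, with 1 shared base, by the reverse complement of TGTGGT. The OSMR window (5:38845762-38846061, plus strand) held an AP-1 motif that begins 3 bases past the start. The capitals mark the matches in these last 2 windows.
LIFR: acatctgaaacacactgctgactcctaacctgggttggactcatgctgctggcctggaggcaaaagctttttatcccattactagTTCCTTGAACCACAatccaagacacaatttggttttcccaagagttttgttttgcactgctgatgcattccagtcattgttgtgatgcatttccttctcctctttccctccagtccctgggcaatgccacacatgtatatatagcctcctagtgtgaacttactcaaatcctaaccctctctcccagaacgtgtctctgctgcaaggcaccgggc
OSMR: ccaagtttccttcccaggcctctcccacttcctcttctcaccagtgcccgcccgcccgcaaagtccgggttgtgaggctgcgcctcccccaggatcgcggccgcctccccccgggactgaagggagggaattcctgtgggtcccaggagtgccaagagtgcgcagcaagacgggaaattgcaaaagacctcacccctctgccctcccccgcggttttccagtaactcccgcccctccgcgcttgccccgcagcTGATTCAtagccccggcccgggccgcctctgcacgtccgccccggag
A match describes the letters of these windows and shows no binding.

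The receptor chains differ in the length of the part that follows the membrane segment, computed from the GENCODE 44 canonical transcripts with the most hydrophobic run of 19 residues taken as that segment. IL13RA2 encodes 380 residues with 17 after the segment, against 60 of 427 in IL13RA1 and 574 of 825 in IL4R. In the IL-6 family, gp130 (IL6ST) has 279 of 918, LIFR 245 of 1097, OSMR 220 of 979, IL6R 82 of 468 and IL11RA 38 of 422, and the IL-1 chains have 213 of 569 (IL1R1) and 192 of 570 (IL1RAP). The WSXWS signature of the haematopoietic receptor family was found in 8 of the 10 proteins and in neither IL-1 chain, which belong to the immunoglobulin family of receptors.

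Levels between genes were compared per length. Mean FPKM in sh1 was 76.7 for IL6ST, 35.1 for OSMR, 23.1 for IL13RA1, 11.2 for IL4R, 8.60 for IL1RAP, 6.89 for LIFR, 2.94 for IL6R, 0.807 for IL11RA, 0.761 for IL1R1 and 0.690 for IL13RA2. In shNC the order ran from IL6ST (68.5), OSMR (25.6), IL13RA1 (20.7), IL4R (9.31), IL1RAP (6.99) and LIFR (5.33) to IL13RA2 (3.11), IL6R (2.65), IL1R1 (0.493) and IL11RA (0.486). The first 6 had the same order in both groups. IL13RA2 had rank 10 in sh1 and rank 7 in shNC by these means, but rank 9 in sh1 by the group medians, where IL1R1 had rank 10. The lowest 3 in sh1 were not separated, as IL11RA was above IL13RA2 in 3 of 6 sh1 libraries and IL1R1 in 2 of 6. Neighbours by mean whose ranges over libraries overlapped were IL4R with IL1RAP, IL11RA with IL1R1 and IL1R1 with IL13RA2 in sh1, and IL4R with IL1RAP, IL1RAP with LIFR, IL13RA2 with IL6R and IL1R1 with IL11RA in shNC. Compared within each library, the first 3 of these shNC pairs kept their order in 6 of 6 libraries and IL1R1 was above IL11RA in 3 of 6. In sh1, IL4R was above IL1RAP and IL11RA above IL1R1 in 5 of 6 libraries. Some libraries stood high in several receptors at once. Library shNC replicate 3 was the highest shNC library in 6 of the 9 genes and sh1 replicate 6 the highest sh1 library in 5 of 9. Without shNC replicate 3, 8 of the 9 genes passed, the most with any library left out, where the fewest was 5.

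**Figure D4:**
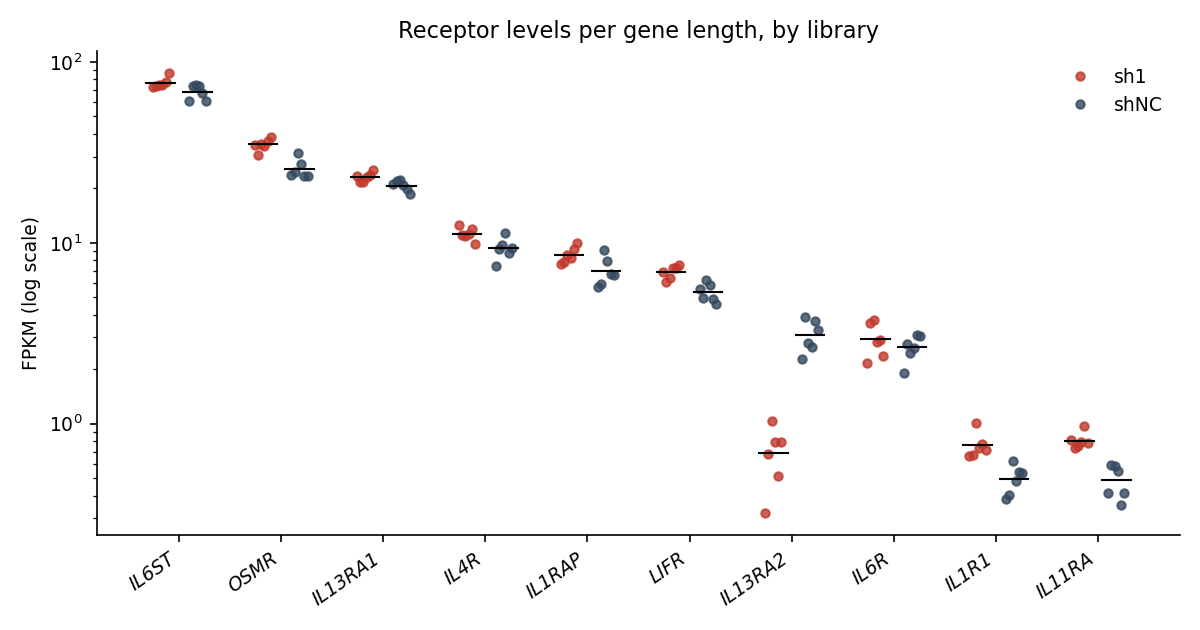
FPKM of the 10 receptor genes in each library on a log axis, sh1 in red to the left of shNC in dark blue, with a bar at the mean. IL6ST is the highest at a mean of 76.7 in sh1 and 68.5 in shNC, and IL13RA2, with a mean of 0.690 in sh1 and 3.11 in shNC, lies among IL1R1 and IL11RA in sh1 and beside IL6R in shNC.

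The IL-6 family ligand LIF averaged 99.1 ± 7.39 CPM in sh1 and 137 ± 29.7 CPM in shNC (SD, n = 6 each) and fell by 0.47 on the log2 scale (edgeR adjusted p = 0.0050). EBI3, a subunit of dimeric cytokines, rose (5.29 CPM in sh1 and 3.74 CPM in shNC, log2 fold change 0.49, adjusted p = 0.010). IL11 (64.1 CPM in sh1 and 82.7 CPM in shNC, log2 fold change -0.36, adjusted p = 0.154) and IL6 (3.81 CPM in sh1 and 3.05 CPM in shNC, 0.32, adjusted p = 0.196) did not pass, and OSM had 2 counts in each group. Of 20 ligand genes, 9 were tested, 1 rose (11.1%, against 12.8% of all tested genes) and 3 fell (33.3%, against 13.3%), with a median log2 fold change of -0.22. Of 24 other receptor genes, 13 were tested, 4 rose (30.8%) and 2 fell (15.4%), with a median of -0.04. IL21R, a chain of the IL-21 receptor, had the largest rise among them (2.78 ± 0.487 CPM in sh1 and 0.732 ± 0.206 CPM in shNC, SD, n = 6 each, log2 fold change 1.90, adjusted p = 2.3e-06). IL7R, which binds IL-7, rose (191.6 CPM in sh1 and 140.7 CPM in shNC, 0.45, adjusted p = 1.0e-04), as did IL15RA, which binds IL-15 (8.60 CPM in sh1 and 5.50 CPM in shNC, 0.64, adjusted p = 0.0013), while CSF2RA, a chain of the GM-CSF receptor, fell by 0.87 (7.21 CPM in sh1 and 13.2 CPM in shNC, adjusted p = 2.7e-06). The shared chain IL2RG, with which IL21R and IL7R pair, had 29 counts in sh1 and 19 in shNC in all and was not tested.

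Of 11 JAK and STAT genes, 8 were tested, 3 rose (37.5%, against 12.8% of all tested genes) and 5 did not pass, with a median of 0.06. STAT3, the main transcription factor of the IL-6 family, had the smallest adjusted p of these, with 216 ± 4.51 CPM in sh1 and 157.3 ± 8.01 CPM in shNC (SD, n = 6 each) and a log2 fold change of 0.46 (edgeR adjusted p = 9.1e-07). Of 19 genes for regulators of this pathway, 16 were tested, 1 rose (6.25%) and 3 fell (18.8%, against 13.3%), with a median of -0.07. PIAS3, an inhibitor of STAT3, rose (48.6 CPM in sh1 and 33.9 CPM in shNC, 0.52, adjusted p = 2.4e-05), and SOCS4, SOCS7 and the adaptor gene IRS1 fell by 0.31, 0.22 and 0.28 (adjusted p = 4.5e-04, 0.015 and 0.0077). SOCS3, the feedback inhibitor that STAT3 induces, had 33.2 CPM in sh1 and 36.6 CPM in shNC and did not pass (-0.14, adjusted p = 0.27). Of 17 genes known to respond to STAT3, 11 were tested, 4 rose (36.4%) and 2 fell (18.2%), with a median of 0.22. The acute-phase genes SAA2 (9.09 CPM in sh1 and 4.26 CPM in shNC, 1.09, adjusted p = 2.0e-06) and SAA1 (22.2 CPM in sh1 and 12.4 CPM in shNC, 0.84, adjusted p = 3.0e-04) rose, but these are near-identical copies whose reads can be shared, and the adhesion gene ICAM1 rose (3.70 CPM in sh1 and 1.71 CPM in shNC, 1.11, adjusted p = 1.2e-04). The survival gene MCL1 fell by 0.25 (adjusted p = 0.0020). CEBPB fell by 0.46 (27.8 CPM in sh1 and 38.3 CPM in shNC, adjusted p = 0.022). BCL6 rose by 0.28 (adjusted p = 0.037). Over all 124 genes of these lists, 76 were tested, with a median log2 fold change of 0.001. Of these, 17 rose (22.4%, against 12.8% of all tested genes) and 12 fell (15.8%, a share close to the 13.3% of all tested genes).

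**Figure D5:**
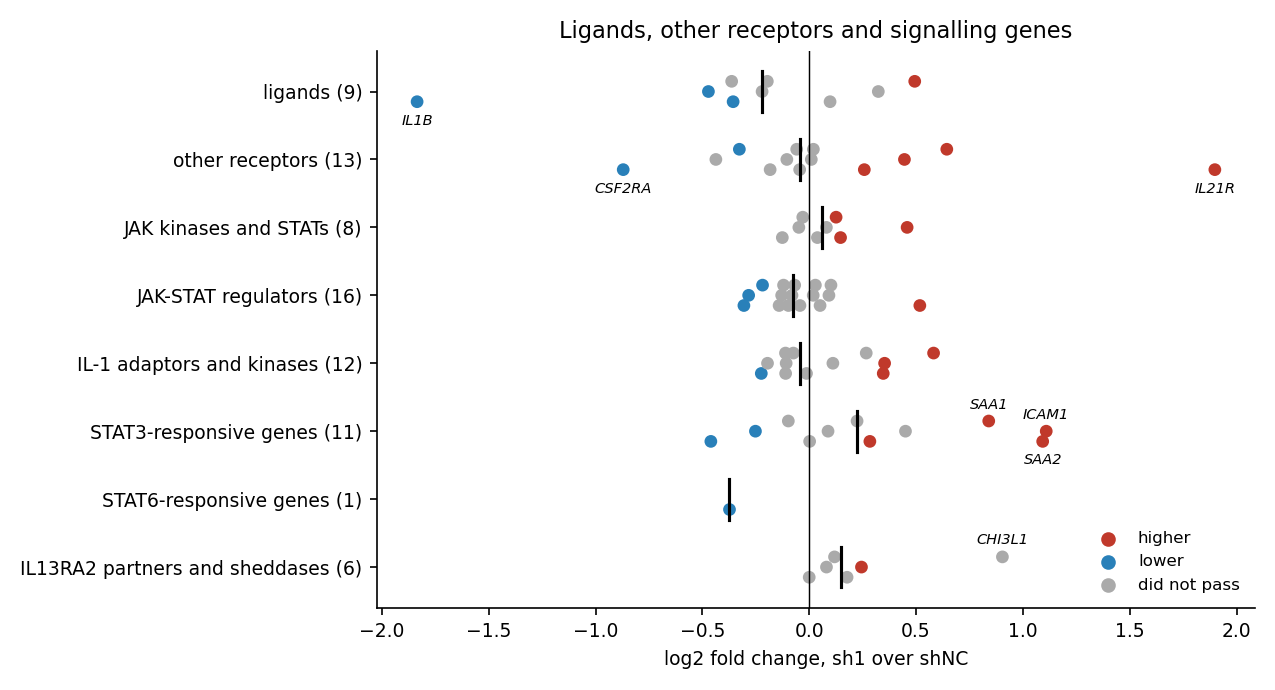
Log2 fold change of sh1 over shNC for 76 tested genes in 8 lists of ligands, other receptors and signalling genes, with the number tested beside each name. Red points passed as higher, blue points as lower and grey points did not pass, and black bars are list medians, from -0.37 for the single STAT6-responsive gene tested to 0.22 for the STAT3-responsive genes.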

How the data were processed

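SJSA-1 libraries (6 sh1, 6 shNC) were grouped by their labels. The authors aligned trimmed read pairs to GRCh38 with HISAT2 and deposited gene counts from featureCounts, with versions not given in the sources used here. The authors also deposited a signal, the counts scaled by a DESeq2 size factor, which served only to read those factors, and FPKM per gene. The 572 entries without an Ensembl identifier held 0.468% to 1.23% of each library's counts and stayed in the totals.

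The main test was edgeR's quasi-likelihood test (version 4.0.16, R 4.3.3) on the counts, after filterByExpr and TMM, with Benjamini-Hochberg adjustment over all 16489 genes, at an adjusted p under 0.05. The SE was derived from the log2 fold change and its F value. The common biological coefficient of variation was 0.11. The scripts were tested on simulated data. Positions, overlaps and protein lengths come from GENCODE 44.

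Members and lists were chosen with earlier results of these data known. Named were the 10 receptors, RUNX2, up to 4 genes per list that passed, by smallest p-value, the 3 nearest tested genes on each side of IL13RA2 and the 5 genes most correlated with it. Other genes of the lists were named after their values were seen. Alternatives were RLE, upper-quartile, library-total and the authors' scaling, 2 other filters (none, and at least 10 counts in every library), robust dispersion, DESeq2 1.42.0, limma 3.58.1 on log2(FPKM + 1), also unfiltered, and on log2(FPKM + 0.1), a block for replicate number, and leaving out each library. The metabolome was not analysed here.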

Additional observations from a re-analysis of the deposited data

Results flagged for a closer look

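In 5 genes, 1 library lay far from the other 5 of its group by Dixon's criterion, out of 72 groups of libraries checked, where chance gives about 1 in 20 groups, or 3.6. IL1R1 had 7.07 CPM in sh1 replicate 3 (4.71 to 5.48 in the other sh1 libraries). IL6ST had 804.0 CPM in sh1 replicate 6 (673.4 to 714.4). IL11RA had 4.14 CPM in sh1 replicate 5 (3.15 to 3.46). STAT3 had 172.7 CPM in shNC replicate 4 (149.5 to 157.1 in the other shNC libraries). SOCS4 had 115.0 CPM in sh1 replicate 6 (94.5 to 98.7).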

How the results depend on the processing

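No alternative turned the direction of any receptor gene. With limma on log2(FPKM + 1) and no filter, 1375 genes passed as lower (2194 by edgeR), 3 of the 9 receptor genes passed as higher (6 by edgeR) and 6 listed genes passed as lower (12 by edgeR). The receptors lost there were IL4R, IL1R1 and IL1RAP (adjusted p = 0.088, 0.065 and 0.137), and IL13RA2 had a log2 fold change of -1.28 on that scale, which understates changes of low genes by its construction. Leaving out 1 library gave 5 to 8 receptor genes. On log2(FPKM + 1) with the filter, IL1RAP was lost (adjusted p = 0.0519). At least 10 counts in every library gave no value for IL13RA2. Another scaling moved the median of all genes by at most 0.0163. With the replicate block, 1680 genes were higher and 1701 lower, and 6 receptor genes passed. The numbers do not pair the libraries: same-numbered libraries correlated at -0.162 to 0.0334 and 0 of 6 matched best with their own number. IL13RA2, IL1R1 and IL11RA have few counts, which limits their precision.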
